A study of Rattus norvegicus with 12 samples.

Results

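The comparison described here is that of oxygen-induced retinopathy (OIR) with sham in rat retinas given a miR-143 mimic, a synthetic copy of that microRNA. It rests on 6 libraries, 3 from OIR and 3 from sham. Its members are the genes with a TPM of 1 or more in at least 3 of these 6 libraries. There were 15141 such genes among the 32883 Ensembl identifiers of the deposited table. Another 5951 identifiers were above 0 in at least 1 of the 6 libraries but too low to enter. TPM is the number of reads of a gene divided by its length and scaled to one total per library, so levels of different genes can be set side by side.

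The retinas were taken at postnatal day 18 from Sprague Dawley rats, which were wild-type. All 6 libraries carry the mimic, which the labels call a transfection, so the difference between them is OIR against sham in the presence of the mimic. A further 6 libraries, 3 OIR and 3 sham, had received scrambled RNA instead, and they are used below only to estimate the spread of each gene and to set the same contrast beside this one. The labels do not state the dose of the mimic, its route, whether the sham pups breathed room air, or which animal each library came from beyond calling the samples biological triplicates, so the p-values reflect variation among libraries, which may be technical. The record of OIR mimic replicate 1 lacks the tags for disease and treatment, and its group comes from its title. Over the whole series 2 records lack the disease tag, this one among them.

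In OIR, raised oxygen stops the growth of the superficial retinal vessels of a newborn rodent. The inner retina becomes hypoxic once the pup returns to room air, and hypoxia-driven growth factors then provoke disordered new vessels, with reactive Müller glia and activated microglia beside them. A microRNA acts by pairing its seed, a short stretch near its 5′ end, with messenger RNAs, which lowers their stability or translation. miR-143 is known as an abundant microRNA of smooth muscle, including that of vessel walls. The deposited table pairs no identifier with a gene name, and 0 of its identifiers could be matched in the RefSeq gene table used here. The markers of retinal cell types, the hypoxia, glial and vascular genes and the targets of miR-143 could therefore not be read, and the label retina was not checked against its markers. Genes are described by level, length, direction and pattern across libraries, and 4 are given by identifier.

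The 6 libraries held 10537600 to 13175005 reads assigned to genes, a number worked out from the TPM steps. Reads and lengths recovered in this way are the smallest whole numbers that give the TPM values. For genes with few reads both may therefore be too low. A single read in a gene of 2000 bases was worth 0.0781 to 0.0987 TPM. On the log2(TPM + 1) scale, libraries of sham differed from each other by a root-mean-square of 0.343 to 0.421 and libraries of OIR by 0.424 to 0.468. A sham and an OIR library differed by 0.538 to 0.622. The first principal component of the 6 libraries held 47.1% of the variance and placed sham at -29.3 to -26.3 and OIR at 25.4 to 30.8. The second held 20.05%, with OIR mimic replicate 2 at -29.6 and the other OIR libraries at 13.4 and 17.3. Every pair of libraries within a group differed by more than counting error, the ratio of chi-square to its degrees of freedom being 4.43 or more.

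A small set of genes split the libraries in a way that the labels do not give. A group of 4 genes stood at 6.91 to 63.4 TPM in 7 of the 12 libraries and at 0 to 0.455 TPM in the other 5. A pair of other genes showed the exact reverse, at 40.4 to 235.5 TPM in those 5 libraries and at 0 to 1.28 TPM in the 7. The next largest set with one on/off pattern held 1 gene. The 4 genes were on in all 3 OIR mimic libraries but in 1 of 3 sham mimic libraries, namely replicate 1, and also in 1 of 3 sham and 2 of 3 OIR libraries with scrambled RNA. Whatever this state stands for was therefore distributed unequally between the groups compared. It was added to the fit as a covariate after the data had been seen, which left 2427 called genes, 1051 higher and 1376 lower in OIR, against 3162 without it. Of those 2427 genes, 2164 were among the 3162.

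Of the 15141 genes, 3162 differed between OIR and sham with the mimic, a share of 20.9% (limma, Benjamini-Hochberg adjusted p below 0.05). In OIR 1584 genes were higher, or 10.5% of those tested, and 1578 were lower, or 10.4%. The changes were mostly modest. Among the called genes, 820 of the higher and 690 of the lower ones changed by less than 1.5-fold. Changes of 1.5 to 2-fold were estimated for 443 higher and 706 lower genes. Beyond 2-fold lay 321 higher genes, or 2.12% of those tested, and 182 lower genes, or 1.20%. These comprised 278 higher and 180 lower genes between 2 and 4-fold and 43 higher and 2 lower genes beyond 4-fold. All folds are on the log2(TPM + 1) scale, which understates the change of low genes and limits how far a low gene can fall. The median log2 fold change was 0.57 for the higher and -0.63 for the lower genes, against 0.04 over all genes tested.

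**Figure D1:**
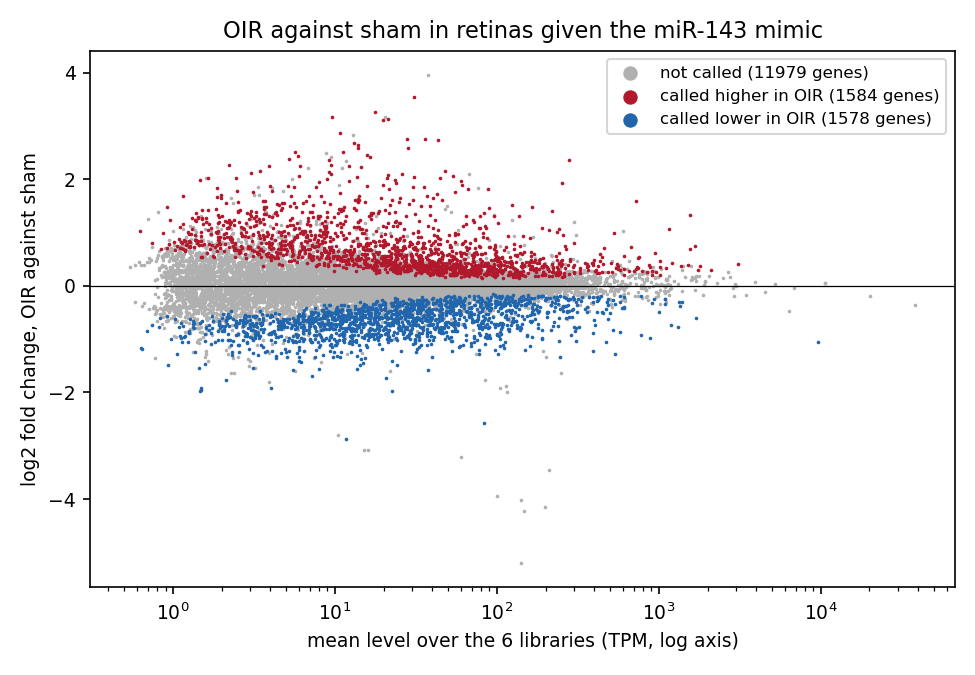
Each point is 1 of the 15141 genes, with its mean level over the 6 mimic libraries (TPM, log axis) and its log2 fold change for OIR against sham on the log2(TPM + 1) scale; red and blue points passed an adjusted p of 0.05. The 1584 higher genes reach further from 0 than the 1578 lower ones, and several of the largest falls are grey because they did not pass.

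The 3 OIR libraries all lay above the 3 sham libraries for 3120 genes, or 20.6% of those tested, and all below for 2505 genes, or 16.5%. Of the called genes, 1564 higher and 1565 lower ones had groups that did not overlap. The median standard error of a log2 fold change was 0.13. For 88.0% of the 11979 genes that were not called, the unadjusted 95% interval lay within a 2-fold change in either direction on that scale. Most of the genes not called therefore had a bound on their difference on that scale, while smaller differences were not detectable in many genes. For low genes the added 1 TPM narrows the interval, so it does not bound the fold of their TPM.

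Among called genes whose groups did not overlap and whose higher group averaged at least 5 TPM, the largest rise was that of ENSRNOG00000040350, a gene with a recovered length of 84 bases. Its level was 4.26, 1.92 and 5.58 TPM in the 3 sham libraries and 67.2, 74.5 and 30.5 TPM in the 3 OIR libraries. Each OIR library lay far above each sham library, but the sham values rest on 6 reads in all and the OIR values on 81. This amounts to 3.55 on the log2 scale (SE 0.50, limma adjusted p 0.00129). With scrambled RNA the gene stood at 9.37 to 14.4 TPM in sham and 15.8 to 63.6 TPM in OIR, a log2 fold change of 1.33 (SE 0.50, limma adjusted p 0.116). The difference between both log2 fold changes was 2.22, with an unadjusted 95% interval of 0.65 to 3.79, and it did not pass the adjustment over all genes.

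The second largest rise rests on far more reads. ENSRNOG00000009144, with a recovered length of 2210 bases, stood at 2.67, 2.77 and 1.91 TPM in sham and at 42.1, 34.2 and 22.5 TPM in OIR, from 98 and 1210 reads. The sham libraries lay within 1 TPM of each other, and the OIR libraries spanned a range of less than 2-fold. Its mean was 2.45 ± 0.472 TPM in sham and 32.9 ± 9.87 TPM in OIR (SD, n = 3). The log2 fold change came to 3.26 (SE 0.39, limma adjusted p 0.000555). With scrambled RNA the log2 fold change was 3.06 (SE 0.39, limma adjusted p 0.00151), and the OIR libraries there spread more widely, from 14.7 to 57.2 TPM. The difference between both log2 fold changes was 0.20, with an unadjusted 95% interval of -1.02 to 1.42.

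The largest called fall was that of ENSRNOG00000059139, a gene with a recovered length of 95 bases. It stood at 20.7, 30.6 and 13.2 TPM in sham and at 1.92, 1.78 and 2.08 TPM in OIR. All OIR libraries were low, but together they held 3 reads, against 37 in sham. Its log2 fold change of -2.87 (SE 0.80, limma adjusted p 0.0284) was not called in 8 of 26 other settings, among them the covariate for the on/off state (-2.31, limma adjusted p 0.108) and the removal of any OIR mimic library (limma adjusted p 0.0653 to 0.0745).

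ENSRNOG00000042277, with a recovered length of 399 bases, had the second largest fall. Its level was 101.3, 162.9 and 168.0 TPM in sham and 17.8, 25.8 and 25.7 TPM in OIR, from 1058 and 152 reads. The groups lay far apart, and the OIR libraries were close to each other. Its mean was 144.1 ± 37.1 TPM in sham and 23.1 ± 4.60 TPM in OIR (SD, n = 3). The log2 fold change came to -2.57 (SE 0.38, limma adjusted p 0.00156). With scrambled RNA it was 84.2 to 108.5 TPM in sham and 21.3 to 75.4 TPM in OIR, a log2 fold change of -1.20 (SE 0.38) that missed the threshold (limma adjusted p 0.0662). The unadjusted 95% interval of the difference ran from -2.55 to -0.19, and the difference did not pass the adjustment over all genes.

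The 12 largest rises taken by the same rule had log2 fold changes of 2.60 to 3.55, and their mean TPM was 7.05 to 14.6 times higher in OIR. They started from sham means of 1.26 to 10.7 TPM and reached 17.9 to 75.5 TPM, so in sham they were low genes. The 12 largest falls had log2 fold changes of -2.87 to -1.49, and their mean level in OIR was 0.0896 to 0.358 of that in sham. Their sham means lay between 5.12 and 144.1 TPM. Of the 12 rises, 1 belonged to a gene shorter than 300 bases, and of the 12 falls 3 did. The ninth largest rise was held by libraries that spread widely, at 3.54 to 19.7 TPM in sham and 34.1 to 136.5 TPM in OIR, and its call was lost in 7 of 26 other settings, the only such gene among the 12 rises. Among the 12 falls, the first and the twelfth lost their call in at least 1 setting.

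The OIR libraries differed in how far these genes moved. Among the 12 rises, OIR mimic replicate 1 was the highest OIR library in 7 genes, replicate 2 in 4 and replicate 3 in 1, and replicate 3 was the lowest in 11. Among the 12 falls, OIR mimic replicate 2 was the lowest library in 8. These genes were chosen from the same libraries, so the counts are a description.

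**Figure D2:**
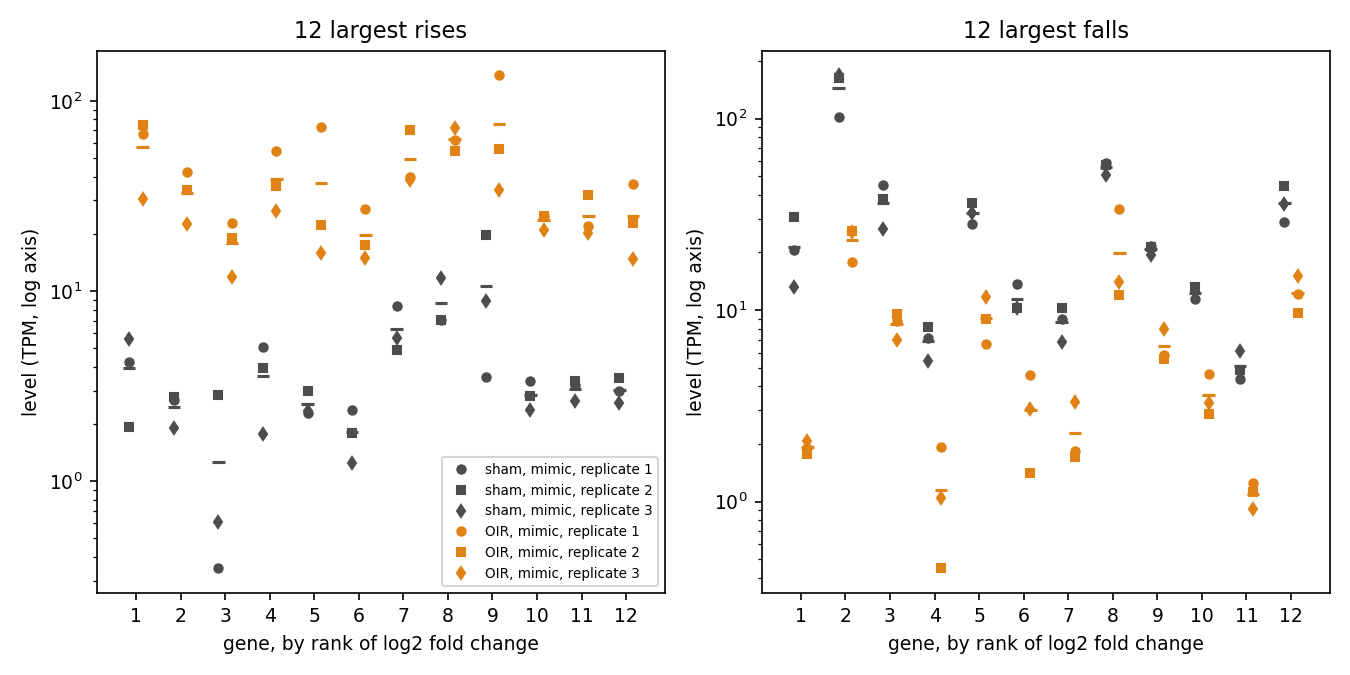
Level (TPM, log axis) in each of the 6 mimic libraries for the 12 genes with the largest rise and the 12 with the largest fall, in order of log2 fold change; points are libraries, short lines are group means. No gene has overlapping groups, which the choice of genes fixed, and gene 9 among the rises spans 3.54 to 19.7 TPM in sham and 34.1 to 136.5 TPM in OIR.

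The share of called genes grew with the level of the gene. Below 10 TPM, 463 of 4938 genes were higher in OIR and 423 lower, 17.9% in all. Between 10 and 100 TPM the numbers were 868 and 880 of 8254 genes, or 21.2%. Between 100 and 1000 TPM they were 238 and 265 of 1863 genes, or 27.0%, and above 1000 TPM 15 and 10 of 86 genes, or 29.1%. The median standard error fell from 0.21 in the lowest class to 0.08 between 100 and 1000 TPM, and the median size of a called change fell with it, from 0.81 to 0.38. Called changes beyond 2-fold were more frequent in low genes. A mean below 10 TPM was held by 179 of the 321 genes that rose beyond 2-fold and 92 of the 182 that fell. Among all tested genes it was held by 4938 of 15141.

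**Figure D3:**
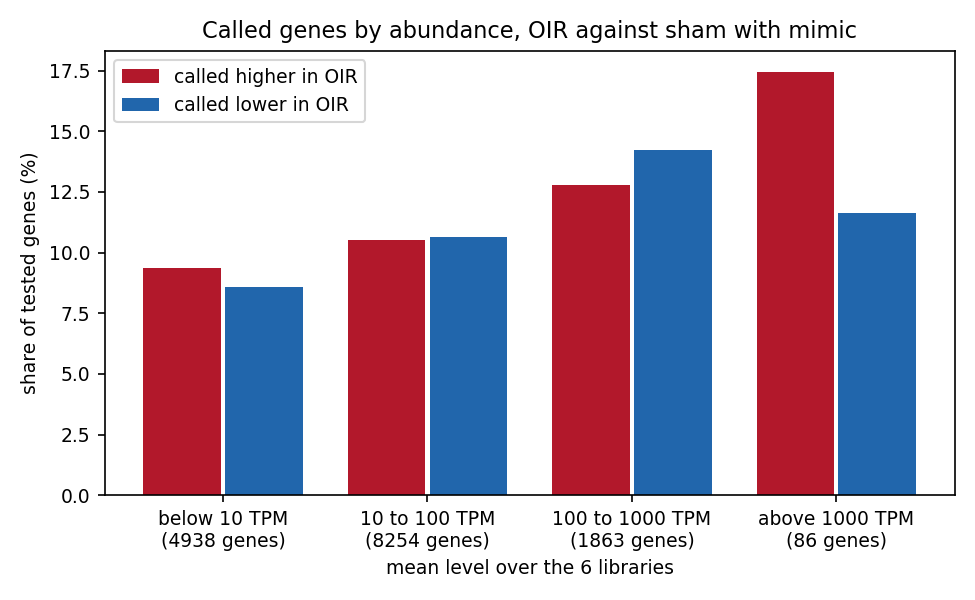
Share of tested genes (%) called higher (red) or lower (blue) in OIR, by mean level over the 6 mimic libraries, with the number of tested genes under each class. Both shares are lowest below 10 TPM, at 9.38% and 8.57%, and the highest class, with 86 genes, has 17.4% and 11.6%.

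Of the 10 genes with the highest mean over the 6 libraries, 1 was called, the gene of rank 5. With so few genes, that count is not read against the 20.9% called among all genes. Its level was 12299, 13048 and 13725 TPM in sham and 5136, 7416 and 6443 TPM in OIR, so every OIR library stood well below every sham library. Its log2 fold change came to -1.06 (SE 0.21, limma adjusted p 0.00601). The most abundant gene stood at 41681, 42493 and 45460 TPM in sham and at 29830, 37956 and 33260 TPM in OIR. Its groups did not overlap, and its log2 fold change of -0.37 (SE 0.14) missed the threshold (limma adjusted p 0.0788), although it passed in 2 of 26 other settings (arrayWeights, and without OIR scrambled replicate 3). The gene of rank 7 missed it too, with a log2 fold change of -0.47 (SE 0.17, limma adjusted p 0.0699), and passed in 4 of 26 other settings. With scrambled RNA both were called lower in OIR, with log2 fold changes of -0.51 and -0.68 (limma adjusted p 0.0342 and 0.0257). The log2 fold changes of the remaining genes lay between -0.18 and 0.07. Together these 10 genes took 12.2, 12.5 and 13.2% of the TPM in sham and 9.26, 12.3 and 10.4% in OIR, so that only OIR mimic replicate 2 overlapped sham (exact permutation test, two-sided, p = 0.2, where 3 against 3 can give 0.1 at the least).

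Among called genes, the largest gains in TPM came from other genes, chosen here after their values were seen. The gene that gained most stood at 868, 941 and 821 TPM in sham and at 2622, 2073 and 1989 TPM in OIR. All OIR libraries were more than 2-fold above the sham mean, with a log2 fold change of 1.34 (SE 0.21, limma adjusted p 0.0020). It held its call in each of the 26 other settings, with log2 fold changes of 1.21 to 1.41. The second largest gain, from 2460, 2814 and 2622 TPM in sham to 3244, 4115 and 3224 TPM in OIR (log2 fold change 0.42, limma adjusted p 0.0313), lost its call in 5 of 26 other settings, among them those without OIR mimic replicate 2, sham mimic replicate 1 or sham mimic replicate 3 (limma adjusted p 0.0835 to 0.0985). The third, from 996, 1493 and 1308 to 2173, 2042 and 2092 TPM (0.75, limma adjusted p 0.0155), lost it without sham mimic replicate 1 (0.59, limma adjusted p 0.0552). The fourth largest gain was that of a gene at 698, 816 and 713 TPM in sham and 1814, 1669 and 1228 TPM in OIR, with a log2 fold change of 1.06 (SE 0.23, limma adjusted p 0.00874). The losses were also ranked among called genes only, and the most abundant gene, which was not called, lost more TPM than any of them. The gene of rank 5 had the largest loss of a called gene. The second largest was that of a gene at 1864, 2188 and 2071 TPM in sham and 1386, 1254 and 1364 TPM in OIR. Its groups were tight and apart, with a log2 fold change of -0.61 (SE 0.08, limma adjusted p 0.000861). Together the called higher genes held 9.98 to 10.2% of the TPM in sham and 13.7 to 14.5% in OIR. The called lower genes held 13.6 to 14.1% in sham and 8.70 to 9.86% in OIR. Without the gene of rank 5 the lower genes held 12.4 to 12.8% in sham and 7.96 to 9.35% in OIR. The genes were chosen from the same libraries, which fixed the direction of these shares, so the shares are a description. Above 1000 TPM, 9 of 15 called higher and 6 of 10 called lower genes were also called in that direction with scrambled RNA. Among all genes called with the mimic these shares were 55.1% for the higher and 33.7% for the lower ones. With so few genes above 1000 TPM, the counts are not read as a trait of abundant genes.

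Called genes also differed by gene length, as recovered from the TPM values. Genes under 300 bases were called least often, in 6.61% of 756 genes, and had the largest median standard error, 0.51. Of the called genes between 300 and 1000 bases, 63.7% were higher in OIR (186 higher and 106 lower). That share was 56.0% between 1000 and 2000 bases, 47.2% between 2000 and 4000 bases and 40.04% for genes of 4000 bases and more, where 221 were higher and 331 lower. Over all tested genes the median log2 fold change fell along the same classes, from 0.08 between 300 and 1000 bases to 0.02 at 4000 bases and more. With scrambled RNA the medians of these classes were 0.09 and 0.01. Length moved with direction in both sets of libraries, and its part in the calls was not tested.

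A further 131 genes had an estimated change beyond 2-fold without passing the threshold, 79 of them higher and 52 lower. In 70 of these the groups overlapped, in 103 at least 1 library stood more than 2-fold from the next within its group, and 63 had fewer than 10 reads in the lower group. The largest fall of the members was one of these, at 0, 358.2 and 482.5 TPM in sham and 0, 2.49 and 0 TPM in OIR (log2 fold change -5.20, SE 3.51, limma adjusted p 0.346). Its groups overlapped, and like the pair of on/off genes above it was low in sham mimic replicate 1 and in all OIR mimic libraries. A set of 5 genes, chosen after their values were seen, with recovered lengths of 616 to 976 bases had log2 fold changes of -4.22 to -3.45 (SE 1.22 to 1.63), and their groups did not overlap. Their limma adjusted p-values were 0.0505 to 0.110. Summed over the 5 genes, the level was 1646, 407 and 2369 TPM in sham and 14.8, 101.3 and 238.8 TPM in OIR. The sham libraries alone spanned more than 5-fold. All 5 genes were highest in sham mimic replicate 3 and lowest among sham in replicate 2. Among the OIR mimic libraries they were lowest in replicate 1 and highest in replicate 3, so they shared 1 order across the mimic libraries. With scrambled RNA the sum was 371, 1071 and 679 TPM in sham and 19.7, 256.8 and 1362 TPM in OIR, where replicate 3 of OIR was the highest of all 6. One of the 5 genes did not share that peak. With scrambled RNA it stood at 49.2, 134.2 and 70.9 TPM in sham and at 1.94, 22.8 and 22.9 TPM in OIR. With the mimic this gene passed the threshold in 9 of 26 other settings. The other 4 passed in 2, both of which left out an OIR library with scrambled RNA.

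Reads in each OIR mimic library and none in any sham mimic library were seen for 69 identifiers. Of these 8 were members, with 3 to 6 reads in all per gene, and 5 were called. The reverse pattern was seen for 52 identifiers. Of these 7 were members, with 3 to 225 reads in the sham libraries (median 7), and 6 were called. Such members could enter only through the group with reads. Their calls are therefore not read against the 20.9% called among all genes. Of the 1584 higher genes 27 had fewer than 10 reads over the 3 libraries of the lower group, and of the 1578 lower genes 19 did. Among all members, 130 reached 1 TPM in each OIR library and in no sham library, and 59 the reverse, so these entered the comparison through 1 group alone.

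The 3 OIR libraries did not contribute equally. Relative to the sham mean, the median of the 1584 higher genes was 0.60, 0.51 and 0.56 on the log2 scale in OIR mimic replicates 1, 2 and 3. For the 1578 lower genes it was -0.45, -0.84 and -0.56. OIR mimic replicate 2 was the OIR library farthest from sham in 1241 of the lower genes, and replicate 1 was the nearest in 1036. Among the higher genes replicate 1 was the farthest in 795 and replicate 2 in 347. The spread followed the same division. Within OIR the median SD of the lower genes was 0.21, against 0.09 within sham, and 80.7% of them spread more in OIR, against 62.2% of all members. For the higher genes the medians were 0.14 and 0.11, and over all members 0.16 and 0.12. Without OIR mimic replicate 1 the called genes were 1090 higher and 1646 lower, without replicate 2 they were 1554 and 1197, and without replicate 3 they were 1107 and 1348. Without sham mimic replicate 3 the count fell to 2075, or 906 higher and 1169 lower, the lowest count on leaving out a library.

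**Figure D4:**
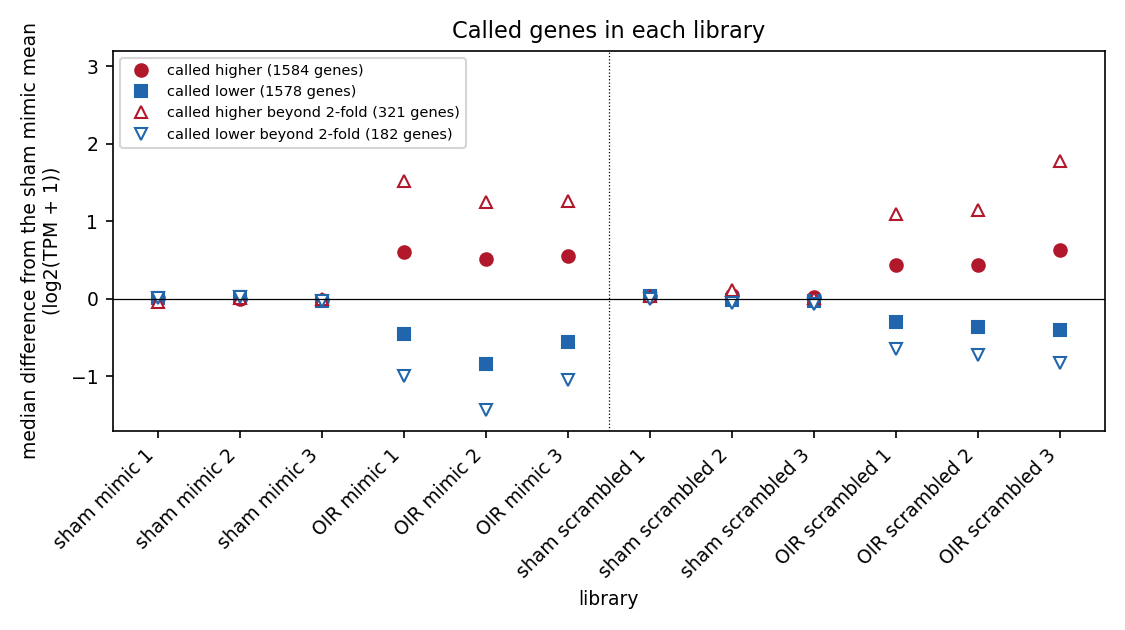
Median difference from the mean of the sham mimic libraries (log2(TPM + 1)) of the genes called with the mimic, in each of the 12 libraries; red symbols are higher and blue symbols lower genes, filled for all called genes and open for those beyond 2-fold, and the dotted line separates mimic from scrambled libraries. OIR mimic replicate 2 is lowest for the lower genes at -0.84, and the OIR scrambled libraries, which entered the choice only through the estimate of spread, lie at -0.40 to -0.29 for them and at 0.44 to 0.63 for the higher genes.

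The same genes were then read in the libraries given scrambled RNA, which share no library with this contrast but entered the same fit and its estimate of spread. Sham mimic replicate 1 and sham scrambled replicate 1 carry the same number in their column names, whose meaning is not given. These libraries correlated at 0.29 in their deviations and were in the same on/off state, and the fit took them as independent. The names also carry a letter, L in every mimic and R in every scrambled library, so whatever the letter marks cannot be told apart from mimic against scrambled RNA. Of the 1584 genes higher with the mimic, 1559 also had a positive log2 fold change with scrambled RNA, and 1323 had OIR libraries that all lay above the sham libraries. Over all 15141 genes 58.3% had a positive value there and 20.1% had all OIR libraries above sham. In that comparison 1085 of the 15141 genes were called higher, or 7.17%, and 627 lower, or 4.14%. The genes called higher with both numbered 873, which is 55.1% of the mimic list and 80.5% of the scrambled list. Of the 1578 genes lower with the mimic, 1540 had a negative log2 fold change with scrambled RNA, against 41.7% of all genes. The 532 called lower with both are 33.7% of the mimic list and 84.8% of the scrambled list. The median log2 fold change of the higher genes was 0.57 with the mimic and 0.46 with scrambled RNA, and that of the lower genes -0.63 and -0.35. The genes were chosen for their change with the mimic, which favours larger values there, so these medians are not a comparison of mimic with scrambled RNA. Beyond 2-fold, 262 of the 321 higher genes and 113 of the 182 lower genes were called in the same direction with scrambled RNA.

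**Figure D5:**
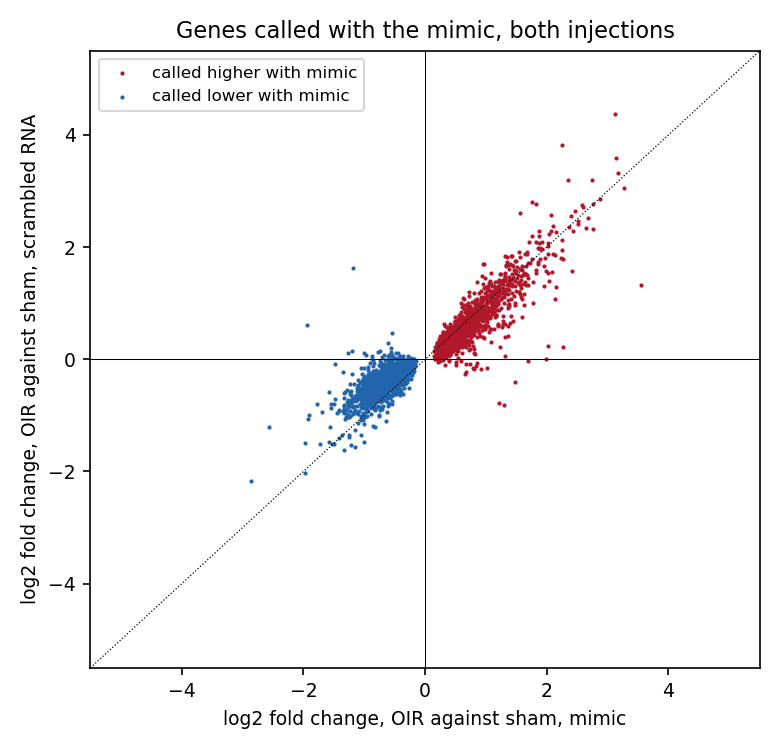
Log2 fold change of OIR against sham with the mimic (horizontal) and with scrambled RNA (vertical) for the 3162 genes called with the mimic; the dotted line marks equal values. Of the higher genes 98.4% and of the lower genes 97.6% have the same sign on both axes.

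Whether the effect of OIR differed between mimic and scrambled RNA was tested by the interaction. It called 0 of the 15141 genes (limma, smallest adjusted p 0.175), a share of 0%. Without adjustment 537 genes, or 3.55% of those tested, had a limma p below 0.05, where 757 would be expected if no gene differed. With limma voom on recovered reads 0 genes were called and 666 had such an unadjusted p. That number depended on the setting. It ranged from 401 without both libraries with the shared number to 1961 with arrayWeights, and was 1109 without OIR mimic replicate 1. The median standard error of the difference was 0.18. The unadjusted 95% interval lay within a 2-fold difference for 83.7% of the genes and within a 1.5-fold difference for 56.1%, on the log2(TPM + 1) scale. The 330 genes at an unadjusted p below 0.05 among those called with the mimic were chosen for their change with the mimic, so that number is not read as an excess. A greater number of genes called with the mimic than with scrambled RNA, 3162 against 1712, therefore does not show by itself that OIR acted on more genes there.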

How the data were processed

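Per the labels' protocols, retinal RNA was sequenced from 1 end. FastQC, TopHat, Cufflinks and Cuffdiff, with rn6, are listed in the submitters' processing notes. The authors deposited TPM values per gene, whose counter and annotation were not given in the sources used here. All 12 columns were assigned through the title lines above the table, leaving 0 unassigned. Reads and lengths were recovered for 22310 of 22310 rows above 0, as the smallest whole numbers (tolerance 0.02). TPM recomputed from them was off by 5.4e-08 of its value at most. That match does not check the reads or lengths of a gene, since a common factor in both would leave its TPM unchanged.

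Log2(TPM + 1) was fitted with limma 3.58.1 (R 4.3.3) over 12 libraries, using 4 group means (8 residual degrees of freedom) and its trend and robust settings. Benjamini-Hochberg adjustment ran over 15141 genes, with a threshold of 0.05. The fit was tested on simulated data. The rule for single genes took the 12 largest called changes per direction without overlap and with at least 5 TPM in the higher group. Its condition on symbols and 44 gene lists could not be used, and 2 identifiers per direction are printed. Members and lists were chosen with earlier results of these data known. Alternatives covered pseudocount, filter, scaling, weights, voom, blocking and left-out libraries.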

Additional observations from a re-analysis of the deposited data

Results flagged for a closer look

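A single gene, with a recovered length of 129 bases, was called in opposite directions with the mimic and with scrambled RNA. With the mimic it had 3 reads in the sham libraries and 0 in the OIR libraries, and with scrambled RNA 0 reads in sham and 5 in OIR. It entered the comparison through the sham mimic libraries alone, so its call sets 3 reads against 0, and limma voom lost that call (adjusted p 0.108). It drew attention because every OIR library lay below every sham library with the mimic and above with scrambled RNA. The fitted difference of the log2 fold changes was -2.82, which depends on the pseudocount and is no bound, and the limma adjusted p of that difference was 0.175.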

How the results depend on the processing

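Over 26 other settings the number of called genes ranged from 2075 to 5459. It was 5459 with arrayWeights, 61.6% of them higher, and 2075 to 3332 with 1 library left out. The lowest, 2075, came without sham mimic replicate 3. The settings that left out a library with scrambled RNA, both libraries with the shared number (2241 genes) or used the on/off covariate were chosen after seeing the data. Median-ratio scaling gave 43.5% and quantile normalisation 43.6% higher genes. The interaction gave 2 genes with a pseudocount of 0.1, 1 with arrayWeights and 0 to 1 with 1 library left out. The cause was not tested. With the replicate number as a block, 3379 genes were called, 3011 of them among the 3162. The labels give no pairing by number, and same-numbered sham and OIR mimic libraries deviated with correlations of 0.12, 0.15 and -0.034, so the numbers were not taken to pair them. Of the 6 libraries, 4 correlated best with their own number. Each match was counted from the sham and from the OIR side, so this count is not read for or against pairing. The direction of the 12 largest rises and 12 largest falls held in each setting that gave a value. The rescaling without named gene classes was not run, for want of names. Genes with few reads are limited by counting error.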
